A study of Caenorhabditis elegans with 2 samples.

Results

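The chromosomal passenger complex and the central spindle proteins build and regulate the spindle midzone in dividing cells of Caenorhabditis elegans. Their 7 genes were air-2, icp-1, bir-1 and csc-1, which encode the passenger complex, zen-4 and cyk-4, which encode centralspindlin, and spd-1, which encodes a microtubule bundling protein. They were taken by name from the Ensembl annotation of WBcel235, where all 7 were found among 19985 protein-coding genes. Binding of DPL-1 at their promoters was measured by chromatin immunoprecipitation and sequencing (ChIP-seq) of whole young adult worms. Their sex is given as males and females pooled. The study had 1 group of 2 biological replicates, both of strain YL390, which carried unc119(ed3)III and the transgene vrIs48. In vrIs48 the pie-1 promoter drives DPL-1 fused to GFP and FLAG, followed by the dpl-1 3′ UTR, with unc-119 (+) as the rescue gene. The label names 1 transgenic strain, the age in days is given as unknown, and the number of worms in a sample is not given. The pie-1 promoter is known for germline expression, and the tissues that held the tagged protein were not measured here.

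DPL-1 is the worm DP protein. It pairs with the E2F-type protein EFL-1 on DNA, and together with the pocket protein LIN-35 they belong to the DREAM complex, which is known to repress cell cycle genes. In the passenger complex the Aurora B kinase AIR-2 is held by the scaffold ICP-1 (INCENP) with BIR-1 (Survivin) and CSC-1, a protein related to Borealin. The complex acts on chromosomes until anaphase and then moves to the midzone, where centralspindlin, made of the kinesin ZEN-4 and the GTPase-activating protein CYK-4, and the PRC1 homologue SPD-1 bundle antiparallel microtubules. Loss of the passenger proteins or of centralspindlin is known to cause failed cytokinesis in the early worm embryo.

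DPL-1 peaks were found at the promoters of the whole passenger complex, of zen-4 and of spd-1, while cyk-4 had no peak above the authors' threshold. A gene was counted as bound if at least 1 optimal IDR summit lay within its promoter window, which began 1000 bp before and ended 500 bp after any of its annotated transcript starts. The irreproducible discovery rate (IDR) measures how alike peaks rank in separate calls, and the optimal list is what the authors kept after filtering by it. By this rule 6 of the 7 genes were bound (85.7%), against 9.22% of all protein-coding genes. The icp-1 peak had no replicate 1 summit within 100 bp. The spd-1 summit lay at -949 bp, much nearer to the opposite-strand gene Y34D9A.3 (-58 bp). The signals of the 6 peaks ran from 30.1 to 111 with a median of 55.0, and the strongest peak of all 1842 bound genes had a median of 45.9. Because the genes were chosen with results of these data known, no test accompanies this count.

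The lists set the limits of what a single peak shows. The optimal IDR list on ce11 held 1546 peaks, which were exactly the 1546 peaks of highest signal in the pooled list, with signals from 23.7 to 738. The pooled list and both replicate lists were fixed at 30000 peaks, so their weaker entries are background by construction. A pooled peak lay in the window of all 7 genes, against 50.4% of all protein-coding genes. Some peak lay in the window in both replicate lists for all 7 genes too, against 32.1% of all genes. Among the 1546 strongest peaks of each replicate, 5 of the 7 genes had a peak in both (71.4%), against 6.41% of all genes, and the exceptions were icp-1 and cyk-4. Read depth is unknown, as these lists contain no read counts, so the counting error of the signals could not be estimated. Signals were read within a list, and ranks were used between lists.

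**Figure D1:**
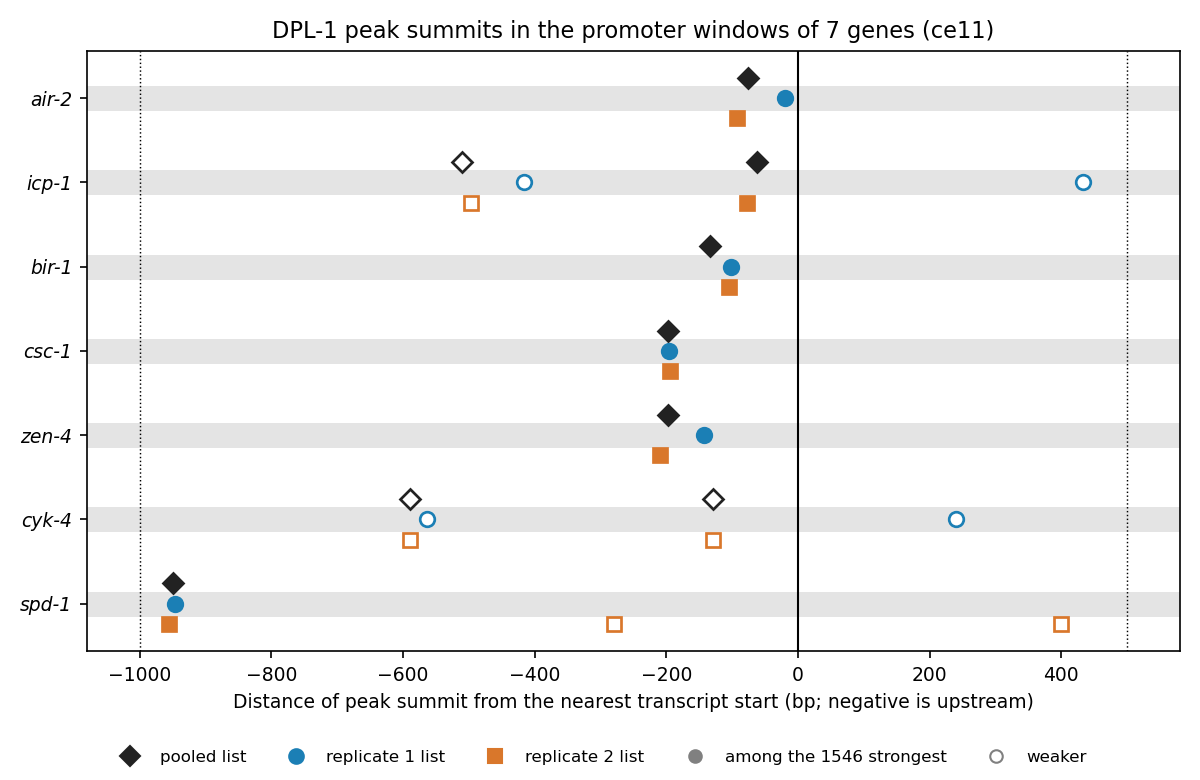
Position of each DPL-1 peak summit in the promoter windows of the 7 genes, in bp from the nearest transcript start (x axis), with the pooled, replicate 1 and replicate 2 lists offset in each row. Filled symbols are among the 1546 strongest peaks of their list and dotted lines mark the ends of the window at -1000 and 500 bp; every filled summit except those of spd-1 lay between -209 and -19 bp.

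Of the 7 genes, csc-1 carried the strongest pooled peak. It encodes the Borealin-related subunit that holds the passenger complex together with BIR-1 and ICP-1. The gene (WBGene00000804) lies at chrII:13596955-13597947 on the plus strand with a single annotated start. Its signal was 55.4 in replicate 1 (rank 45), 70.5 in replicate 2 (rank 230) and 111 in the pooled list (rank 183), which is 2.63 times the median of the optimal IDR list. The peak was thus near the top of both replicate lists, and higher placed in replicate 1. Its summits lay at -196, -195 and -198 bp from the start in the same order, within 3 bp of each other. The pooled peak spanned 142 bp (chrII:13596725-13596866), against a median width of 290 bp in the list.

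The summit of csc-1 lay between divergent starts, at -198 bp from csc-1 and -202 bp from the F-box gene fbxc-23 on the opposite strand. The starts were about equally far, so the peak cannot be assigned to 1 of them. An E2F-type match was centred 36 bp from the summit, on the csc-1 side, at -162 bp from the start. E2F-type matches are the letters TTCCCGC or else TTCGCGC, and in the same way TTGCCGC or else TTGGCGC, searched on both strands, the form of site known to be bound by E2F and DP proteins.

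Near the summit of bir-1 the same 7 letters were found in the same orientation. The matches of csc-1 (chrII:13596779-13596807, plus strand) and bir-1 (chrV:11644364-11644392, plus strand) are printed from the RefSeq genome of WBcel235, which is ce11, because they are E2F-type matches beside passenger complex summits. Capitals mark the match, which is TTCGCGC on the other strand.
csc-1: accgaatgcgaGCGCGAAaatttttcgat
bir-1: tgtatatttcaGCGCGAAattcgtcagtg
Both lines read along the gene's strand, and both lay outside annotated exons. TTCGCGC was found within 100 bp of 207 of 1522 nuclear optimal IDR summits (13.6%).

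The weakest bound gene was bir-1, which encodes the worm Survivin. The gene (WBGene00000249, chrV:11644477-11645370, plus strand) has 2 annotated starts. Signal was 10.5 in replicate 1 (rank 1389), 19.2 in replicate 2 (rank 1238) and 30.1 in the pooled list (rank 1161), 0.714 times the median of the optimal IDR list. The ranks were close to each other and near the end of the strongest 1546 in both replicates, whose lowest signals were 9.86 and 15.9. The pooled summit lay at -133 bp from the first start and -416 bp from the second, and the replicate summits lay 31 and 28 bp from it. No other protein-coding gene shared the peak, which also lay -428 bp from the start of the opposite-strand noncoding gene linc-153. The E2F-type match was centred 34 bp from the summit, at -99 bp from the first start. Downstream of bir-1, skp-1, the worm homologue of the splicing and transcription factor SKIP, begins after a gap of 110 bp on the same strand, and it is known to share an operon with bir-1. No pooled peak lay in the window of skp-1 itself.

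The kinase gene air-2 had an intermediate peak in both replicates. The gene (WBGene00000099) lies on chromosome I at 5937195 to 5938881 on the plus strand with 2 annotated starts, and AIR-2 is the enzyme of the passenger complex. Signal was 23.4 in replicate 1 (rank 378), 37.0 in replicate 2 (rank 544) and 59.4 in the pooled list (rank 496), or 1.41 times the list's median. The ranks differed by a ratio of 1.44, under the median ratio of 1.85 over the 1375 optimal IDR peaks matched in both replicates. The pooled summit at -76 bp from the first start lay between the replicate summits at -19 and -92 bp. It also lay in the window of B0207.6 on the opposite strand (-162 bp), whose gene ends 237 bp before the first air-2 base. An E2F-type match lay 32 bp from the summit, at -44 bp from the first start.

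In replicate 1 the scaffold gene icp-1 lacked the summit that carried its optimal IDR peak. The gene (WBGene00002047, chromosome I, 2304513 to 2306790, minus strand) encodes the INCENP protein that binds and activates AIR-2. At its pooled summit, -62 bp from the first start, the signal was 37.8 (rank 869), and replicate 2 had a summit 16 bp away with 31.8 (rank 677). Replicate 1 had no summit within 100 bp. Its nearest peak in the window had a signal of 8.93 (rank 1866) and a summit at -416 bp, and a weaker peak of 6.40 (rank 4246) lay at 433 bp. The peak that counted icp-1 as bound was thus seen in replicate 2 and not in replicate 1. A further pooled peak at -510 bp had a signal of 22.6 (rank 1637), just under the optimal list's lowest signal of 23.7. It was seen in replicate 2 at -496 bp (14.9, rank 1677), and the replicate 1 summit at -416 bp lay 94 bp from it. Its summit lay over an annotated exon of the opposite-strand gene Y39G10AR.9, whose window also held the stronger peak, at -415 bp from its start.

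Both kinds of motif match lay near the main icp-1 summit. E2F-type matches were centred 8 and 50 bp from it, on opposite strands, at -70 and -112 bp from the first start. CHR-type matches, TTCGAA or TTTGAA on either strand, the element bound by the DREAM subunit LIN-54, were centred 24 and 34 bp from it. The closest E2F-type and CHR-type centres were 15.5 bp apart, against 106.5 bp at csc-1, the other gene with both. Downstream on the same strand, 115 bp after icp-1, lies tpxl-1, which encodes the activator of the Aurora A kinase. Its own window held no optimal IDR peak, and its strongest pooled peak had a signal of 12.5 (rank 3720) at -598 bp.

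**Figure D2:**
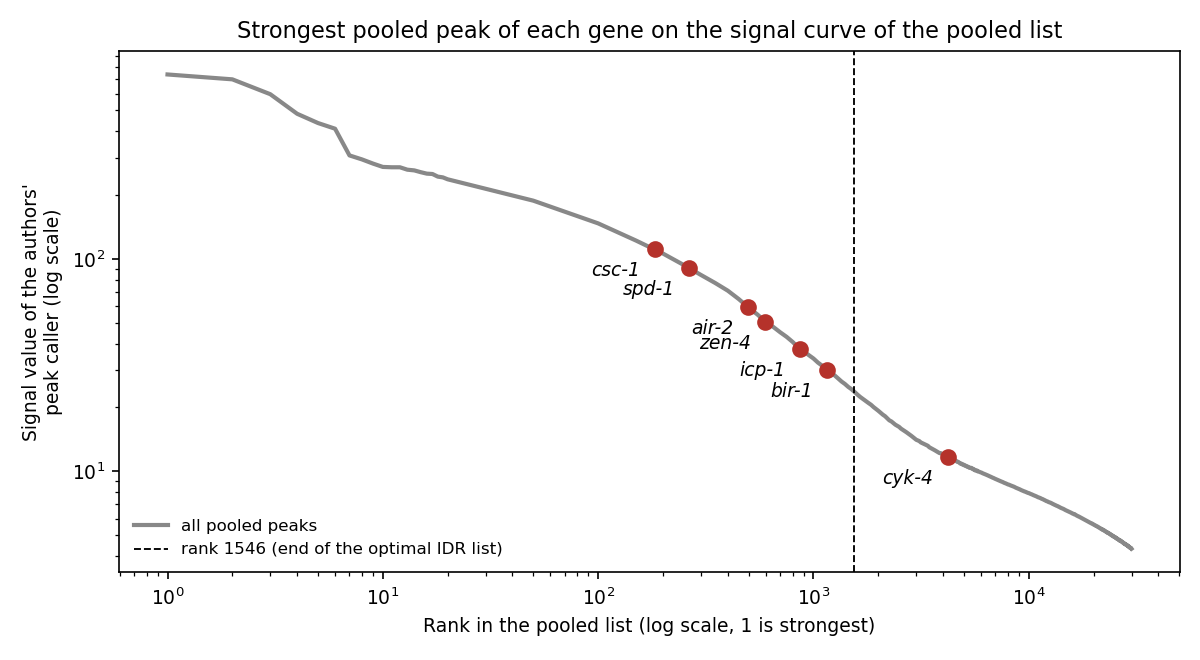
Signal value of the authors' peak caller (y axis, log scale) against rank (x axis, log scale) for the pooled list, with the strongest peak in each gene's window in red. Of the 7 genes, csc-1 sits highest at 111 and cyk-4 alone falls to the right of rank 1546, at 11.7.

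Of the centralspindlin genes, zen-4 was counted as bound and cyk-4 was not. ZEN-4 is the plus-end kinesin of the complex, and its gene (WBGene00006974, chrIV:6118215-6121777, plus strand) has 9 annotated transcripts from 4 starts within a few bases. Its signal was 16.5 in replicate 1 (rank 648), 35.7 in replicate 2 (rank 584) and 50.6 in the pooled list (rank 596), 1.20 times the list's median. These were the closest replicate ranks among the bound genes, with a ratio of 1.11. The pooled summit lay at -197 bp from the nearest start, and the replicate summits at -142 and -209 bp. No other protein-coding window held the peak, which also lay -142 bp from the start of the opposite-strand snoRNA gene M03D4.78.

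CYK-4 is the GTPase-activating subunit of centralspindlin, and its gene (WBGene00000875, chrIII:13768648-13771224, minus strand) had only weak peaks. At -129 bp from the start the pooled signal was 11.6 (rank 4305). Replicate 2 had a peak at the same base with a signal of 11.2 (rank 2510), and replicate 1 had none within 100 bp. The summit at -129 bp lay in the gap of 288 bp between cyk-4 and the divergent gene pdr-1, the worm parkin. It thus also lay in the window of pdr-1. At -589 bp, inside a pdr-1 intron, the pooled signal was 11.7 (rank 4201). The replicate signals there were 4.82 in replicate 1 (rank 8744) and 4.35 in replicate 2 (rank 13946). This pooled peak was also the strongest in the window of pdr-1, 51 bp downstream of an annotated pdr-1 start, much nearer than the cyk-4 start. A further replicate 1 peak of 3.09 (rank 20866) lay at 240 bp from the cyk-4 start. Neither pooled peak reached the threshold of 23.7, and no optimal IDR peak lay between 2000 bp before and 1000 bp after the start. The nearest was 2980 bp downstream of the cyk-4 start, with a signal of 39.1 (rank 832), in the window of rml-1, the next gene on the same strand, at -152 bp from its start. The replicate 2 peak at -129 bp had the highest −log10 q of that list (3.84). That maximum was tied, and the replicate 2 peaks of air-2, bir-1, csc-1 and zen-4, among others, had it too. A pooled peak of rank 4305 or stronger lay in the window of 17.3% of all protein-coding genes.

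No E2F-type match lay within 250 bp of the zen-4 summit, and none lay within 100 bp of either cyk-4 summit. CHR-type matches were found at both genes: 1 near the zen-4 summit, 54 bp from it, and 4 near the cyk-4 summit at -129 bp. The following stretches are shown because they hold the match of zen-4 (chrIV:6118059-6118086, plus strand) and the only TTCGAA of cyk-4 (chrIII:13771304-13771331, minus strand, 35 bp from the summit). Capitals mark the match, and each line reads along the gene's strand.
zen-4: tccgccgccagTTTGAAttctaaccgtt
cyk-4: cgagcttcaaaTTCGAActgttttccac
In the cyk-4 stretch a second match, TTCAAA, stands directly before the capitals. Similar numbers of CHR-type matches were rare everywhere: 4 or more lay within 100 bp of 1.05% of nuclear optimal IDR summits and in 1.43% of promoter stretches of the same length.

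The midzone bundling gene spd-1 was counted as bound through a strong peak at the far edge of its window. The gene (WBGene00004952, chromosome I, 1030633 to 1033436, minus strand) has 1 annotated start. Signal at the peak was 13.2 in replicate 1 (rank 927), 76.7 in replicate 2 (rank 199) and 90.3 in the pooled list (rank 265), 2.14 times the list's median. Both replicates held it, with summits 2 and 6 bp from the pooled one, and replicate 2 placed it much higher. The summit lay at -949 bp from spd-1 but at -58 bp from Y34D9A.3 on the opposite strand, whose start was much the nearer. Among all 1842 bound genes the median distance was -220 bp (quartiles -381 and -122 bp), and 30 of them (1.63%) had their nearest summit as far upstream as spd-1 or farther. Closer to the spd-1 start there were only weak replicate 2 peaks, of 2.90 (rank 23711) at -280 bp and of 3.95 (rank 16137) at 399 bp, with no pooled or replicate 1 peak. By nearest transcript start, and with a window of 500 bp before to 250 bp after the start, spd-1 was not bound. The summit had 4 CHR-type matches within 100 bp, the nearest 15 bp away, and no E2F-type match within 250 bp.

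Closeness of the replicates was uneven across the bound genes. The ratio of the larger to the smaller replicate rank was 1.11 for zen-4, 1.12 for bir-1 and 1.44 for air-2. It was 4.66 for spd-1 and 5.11 for csc-1, which ranked higher in replicate 2 and in replicate 1. For icp-1 no ratio could be formed. Over the 1375 optimal IDR peaks matched within 100 bp in both replicates the median ratio was 1.85, the upper quartile 3.08 and the 90th percentile 6.85. The first 3 genes were thus below the typical spread between replicates, and spd-1 and csc-1 lay above its upper quartile.

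**Figure D3:**
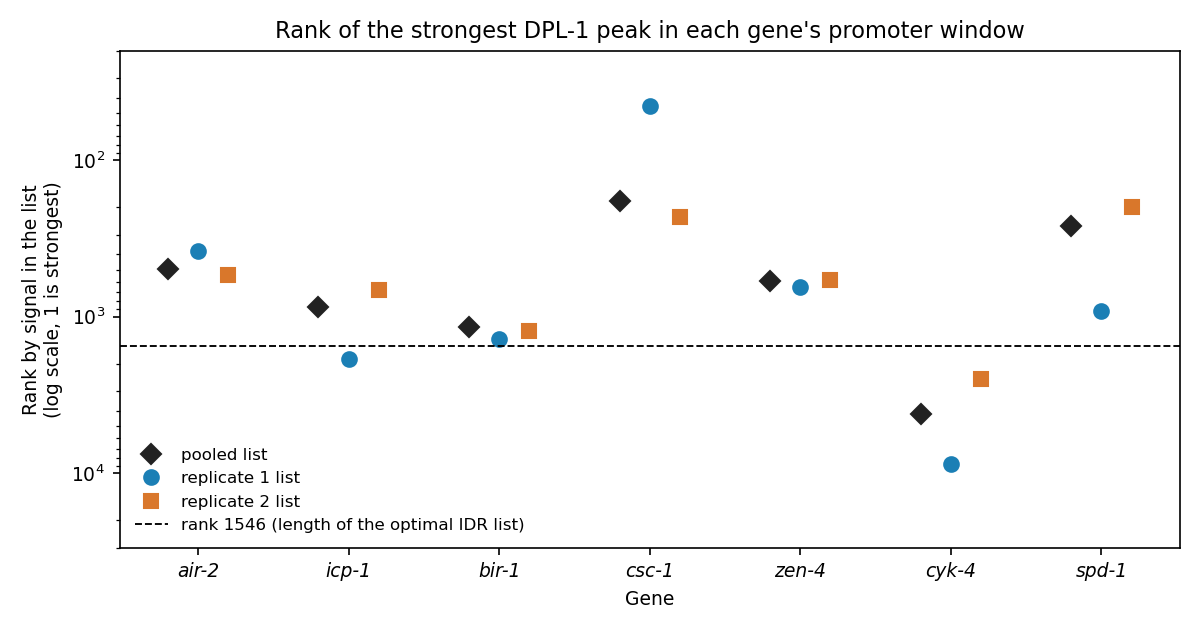
Rank of the strongest peak in each gene's promoter window (y axis, log scale, strongest at the top) in the pooled, replicate 1 and replicate 2 lists. The dashed line marks rank 1546, and points of 1 gene can belong to different sites. For icp-1 the replicate 1 point (rank 1866) is the peak at -416 bp, not the one at -62 bp. All cyk-4 points lie below the line, at 4201 (pooled, -589 bp), 8744 (replicate 1, -563 bp) and 2510 (replicate 2, -129 bp).

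E2F-type matches lay near the summits of 4 of the 6 bound genes, all of them in the passenger complex. Outside that complex only zen-4 and spd-1 were bound. The spd-1 summit lay at -949 bp from spd-1 but at -58 bp from Y34D9A.3. All 4 passenger complex genes had at least 1 E2F-type match within 100 bp of the summit, the nearest centred 8 to 36 bp from it. Neither zen-4 nor spd-1 had such a match. Over all nuclear optimal IDR summits 566 of 1522 (37.2%) had a match, at a median of 26 bp from the summit (quartiles 11 and 41 bp). The share was 9.72% of all 29973 nuclear pooled summits and 6.29% of the 201 bp up to the first start of 19973 nuclear protein-coding genes. Each passenger gene had a match that also held a further T in front of the 7 letters (TTTCCCGC, TTTCGCGC, TTTGCCGC or TTTGGCGC), which 22.3% of the nuclear optimal IDR summits had. CHR-type matches lay at icp-1, csc-1, zen-4 and spd-1 but not at air-2 or bir-1. They were within 100 bp of 64.3% of nuclear optimal IDR summits and in 56.2% of the promoter stretches. A match is a string of letters and does not show a bound site. With 6 bound genes, no difference between complexes was tested.

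**Figure D4:**
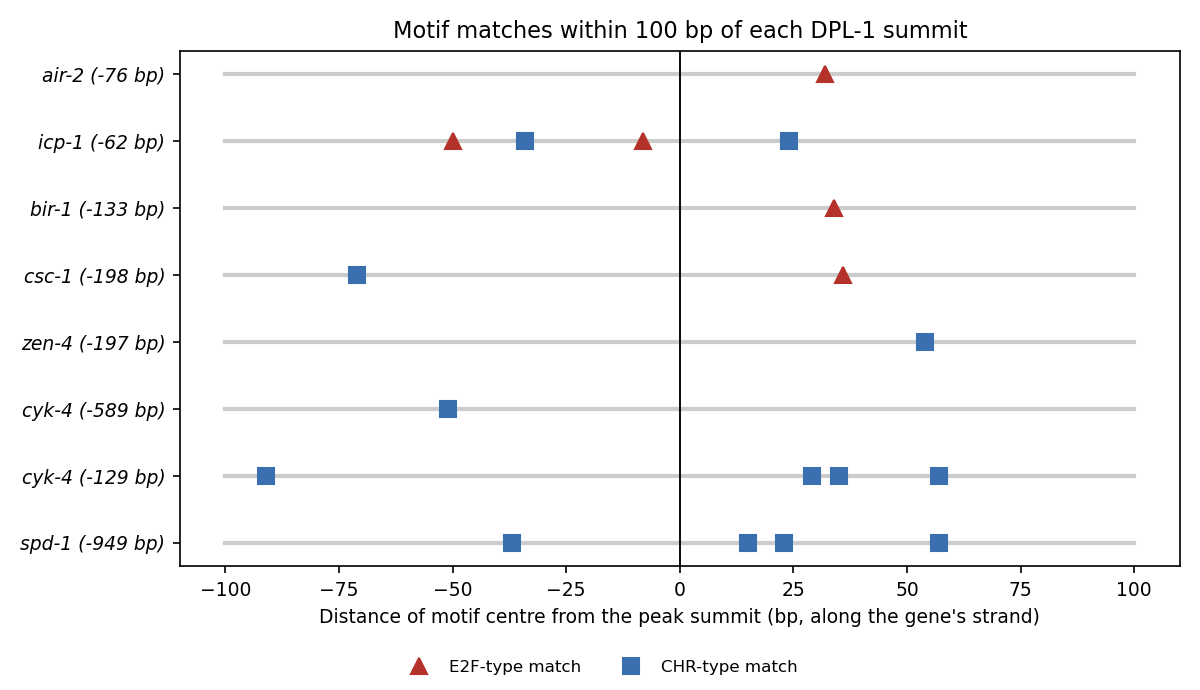
Motif matches within 100 bp of the optimal IDR summit of each bound gene and of both pooled summits of cyk-4, with the summit's distance from the transcript start in brackets. The x axis is the distance of the match centre from the summit in bp along the gene's strand; triangles (E2F-type) occur in the rows of air-2, icp-1, bir-1 and csc-1.

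The base composition of the bound summits varied, and all of them lay between divergent genes. Content of G and C in the 201 bp around the bound summits ran from 34.3% at air-2 to 50.7% at zen-4, and the list's quartiles were 34.8% and 43.3%. The spd-1 peak was narrow like that of csc-1, at 155 bp, a width not exceeded by 13.0% of the optimal IDR peaks. All 6 optimal IDR summits were intergenic, against 78.2% of the 1308 optimal IDR peaks in any protein-coding window. Each also lay in the window of 1 other annotated gene, piRNA genes left aside, on the opposite strand, and 52.8% of the 1308 lay in windows of 2 or more such genes. That gene was protein-coding for air-2, icp-1, csc-1 and spd-1, and noncoding for bir-1 and zen-4. Counting protein-coding genes alone, 43.1% of the 1308 were shared. For none of the 6 peaks, then, can DPL-1 binding be assigned to the spindle gene alone, and at csc-1, zen-4 and spd-1 the neighbour's start was about as near as the spindle gene's or nearer.

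DPL-1 peaks were also found at genes that work with these proteins, in lists chosen with earlier results of these data known. A list of 16 regulators, substrates and relatives of Aurora B had 10 bound genes (62.5%), and a list of 18 genes of cytokinesis, from contractile ring assembly to abscission, had 7 (38.9%), against 9.22% of all protein-coding genes. The strongest peaks of the bound genes had a median signal of 55.0 at the 6 bound spindle genes, 109 in the Aurora B list and 78.0 in the cytokinesis list; differences between the lists were not tested. In the Aurora B list the strongest were sgo-1, the worm shugoshin (signal 163, rank 75), and plk-1, the Polo-like kinase (156, rank 87). Next came klp-7, a microtubule-depolymerising kinesin (149, rank 98), and rec-8, the meiotic cohesin subunit that AIR-2 phosphorylates (138, rank 119). All 4 ranked above csc-1. The klp-7 summit lay at -917 bp, like spd-1 near the edge of the window, and the rec-8 peak also lay in the window of mex-5.

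Paralogues of passenger complex genes, and some regulators, lay below the threshold. The Aurora A gene air-1 had a pooled signal of 17.4 (rank 2258) and bir-2, the other worm gene of the BIR family, had 22.1 (rank 1675). For bir-2 the rank was 9765 in replicate 1 and 1185 in replicate 2. The haspin gene hasp-1, whose kinase marks histone H3 for the passenger complex in other species, had 13.8 (rank 3138). Its rank was 1545 in replicate 1, and replicate 2 had no summit within 100 bp. The gene lab-1, which opposes AIR-2 on meiotic chromosomes, had 23.6 (rank 1562, with 20166 in replicate 1 and 1287 in replicate 2). Peaks of lab-1 and bir-2 were thus just under the lowest optimal signal.

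In the cytokinesis list the strongest peaks were at rga-3, a GTPase-activating protein (166, rank 71), par-5, a 14-3-3 protein (153, rank 93), ani-1, the anillin of the contractile ring (109, rank 191), and unc-59, a septin (78.0, rank 338). The rga-3 peak also lay in the window of K09H11.9, that of par-5 in that of M117.3 and that of unc-59 in that of W09C5.1. The rga-3 paralogue rga-4 had no optimal IDR peak, with a pooled signal of 10.7 (rank 5035). Several core genes of the ring were not bound: nmy-2, the nonmuscle myosin, had 8.95 (rank 7509), and the formin gene cyk-1, the myosin light chain gene mlc-4 and the kinase gene let-502 had no pooled peak in the window. E2F-type matches lay within 100 bp of the summit at 4 of the 6 bound spindle genes, 3 of the 10 bound Aurora B genes and 5 of the 7 bound cytokinesis genes, against 37.2% of all nuclear optimal IDR summits. CHR-type matches lay there at 4, 8 and 5 of the same genes, against 64.3% of the summits. Differences between these counts were not tested.

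**Figure D5:**
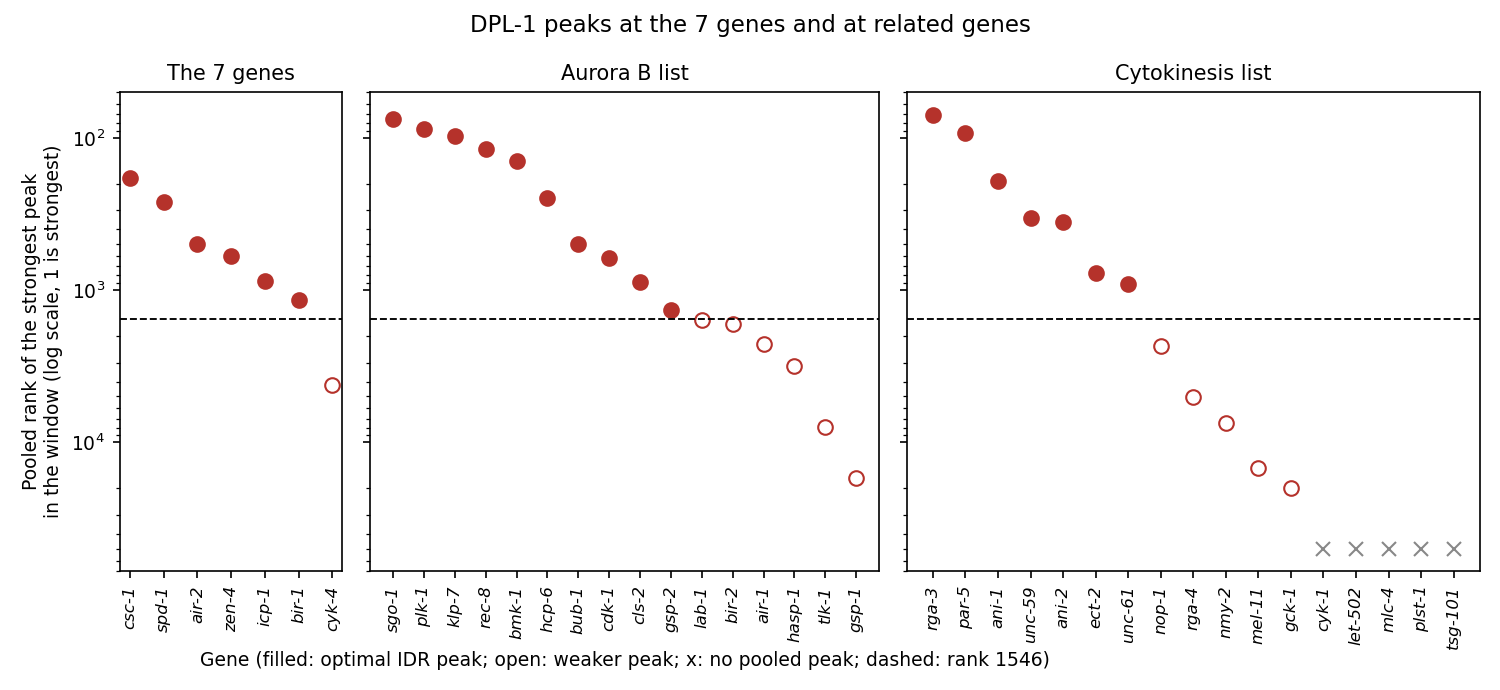
Pooled rank (y axis, log scale, strongest at the top) of the strongest peak in the promoter window of the 7 genes, the 16 genes of the Aurora B list and 17 of the 18 of the cytokinesis list, each sorted by rank. Filled points above the dashed line at rank 1546 are optimal IDR peaks (6, 10 and 7 genes), open points are weaker peaks and crosses mark genes with no pooled peak.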

How the data were processed

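ChIP-seq peak lists on ce11 were used for 2 biological replicates of 1 group. Per the deposited description files, the authors called each replicate's list and the pooled list with a control alignment and derived the optimal IDR list from them. For the aligner and peak caller, names were not given in the sources used here. The signal value of each peak is the authors' own and was used to rank peaks. The deposited −log10 q column has ties at its maximum, 3.51 in the optimal IDR list, and ranked nothing. Lists on ce10 were not used here.

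Summits were set against transcript starts of the Ensembl 115 annotation of WBcel235, the same assembly as ce11, with Python 3.11.15. No peak passed a chromosome's end, which by itself does not show that the build is right. Summits within 100 bp were matched between lists. Window and motif rules were tested on simulated data. All 7 genes, every gene sharing their optimal IDR peaks, their next neighbours and the 4 strongest bound genes of each pathway list were to be named; other genes were named after their values were seen. The genes, lists and rules were chosen with earlier results of these data known. With 1 group, no comparison between groups or test was made. The value of 1 gene of the cytokinesis list is not reported here.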

Additional observations from a re-analysis of the deposited data

How the results depend on the processing

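The count of 6 bound genes was 5 with a window of 500 bp before to 250 bp after the start and 5 by nearest transcript start, both without spd-1. It was 6 with 1 of 2000 bp before to 1000 bp after and with any part of the peak in the window. With the strongest 773 optimal IDR peaks it was 4, without icp-1 and bir-1. It ran from 5 to 6 with 1 replicate left out, and icp-1 was lost without replicate 2. Under these settings the share of all protein-coding genes bound ran from 5.12% to 11.5%. The count of genes with a peak in both replicate lists stayed at 6 or 7, and that among the strongest of both at 4 or 5. The 17 bound genes of the pathway lists became 14 to 19. The 4 genes with an E2F-type match stayed at 4 within 50 bp or 250 bp of the summit and with a further T. The count within 50 bp could not differ, as the nearest matches lay 8 to 36 bp from the summit. No paired analysis was possible because there was 1 group. Unknown read depth and the fixed length of the lists limit what a weak peak shows.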
